A study of Mus musculus with 4 samples.

Results

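Promoter-flank peaks are the H3K27me2 peaks whose nearer edge lies between 1 and 3 kb from the start of a transcript, taken here as every peak that the authors' annotation placed at 1 to 2 kb or at 2 to 3 kb of a promoter. There were 3640 such peaks among the 56036 peaks of 4 lists. Ezh2m+/p+ zygotes contributed 372 of 5744 maternal and 1213 of 17863 paternal peaks, and Ezh2m-/p+ zygotes 683 of 9606 maternal and 1372 of 22823 paternal ones. The sign of the listed distance separates upstream from downstream flanks. The peaks came from ULI-NChIP-seq, an immunoprecipitation of native, nuclease-digested chromatin for very few cells, done on pooled PN5 zygotes of in vitro fertilized C57BL/6J eggs and PWK/PhJ sperm. Mothers of both groups were Ezh2 fl/fl on a C57BL/6J background. For the Ezh2m-/p+ group they had the Gdf9-Cre transgene in addition, whose recombinase acts on floxed Ezh2 during oocyte growth, and the allele from PWK/PhJ sperm was wild type in either group. Each genotype had 1 H3K27me2 library and 1 input library, and the maternal (C57BL/6) and paternal (PWK) lists of a genotype were split from the same library by strain variants. With 1 library for each genotype there was no replicate check and no test, and no p-value is given. The genotype of a list is that of its label, which the lists could not check because they hold no reads. All intervals in brackets are 95% Wilson intervals, which cover counting error in these lists only.

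H3K27me2 is laid down on histone H3 by PRC2, whose catalytic subunit is EZH2 or EZH1, and it is the step between mono- and trimethylation of the same lysine. In many cell types H3K27me2 is spread broadly over intergenic and inactive genic chromatin, whereas H3K27me3 gathers at CpG-rich promoters of silent developmental genes. The sequence just outside a promoter is therefore a transition between the CpG-rich start and the surrounding chromatin. After fertilization the sperm genome exchanges protamines for newly assembled histones, while the maternal genome brings the histones of the oocyte.

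To show what such a flank looks like, the reference sequence is given for 4 genes with a flank peak at the same place in both genotypes, those with the highest lower fold whose windows touched no exon. For each gene the first line holds the 200 bases of the peak, common to both genotypes, that lie nearest the start, and the second line the 200 bases directly upstream of that start. All lines are C57BL/6J reference sequence of GRCm38 (mm10) on the strand of the gene, read 5′ to 3′, with CG dinucleotides in capitals. Rnf24 (a RING finger protein; minus strand) and Rptor (a subunit of the mTOR complex; plus strand) had maternal peaks. The Rnf24 windows are chr2:131355201-131355400 and chr2:131352893-131353092, and those of Rptor chr11:119653200-119653399 and chr11:119655744-119655943. Rnase6 (a secreted ribonuclease; plus strand) and Cadm3 (a cell adhesion molecule; minus strand) had paternal peaks. The Rnase6 windows are chr14:51121200-51121399 and chr14:51123708-51123907, and those of Cadm3 chr1:173370001-173370200 and chr1:173367696-173367895.
Rnf24 peak edge: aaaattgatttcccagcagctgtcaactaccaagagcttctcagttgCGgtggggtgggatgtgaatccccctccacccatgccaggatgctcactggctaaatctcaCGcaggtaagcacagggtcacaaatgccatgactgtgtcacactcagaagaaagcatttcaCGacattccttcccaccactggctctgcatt
Rnf24 upstream of the start: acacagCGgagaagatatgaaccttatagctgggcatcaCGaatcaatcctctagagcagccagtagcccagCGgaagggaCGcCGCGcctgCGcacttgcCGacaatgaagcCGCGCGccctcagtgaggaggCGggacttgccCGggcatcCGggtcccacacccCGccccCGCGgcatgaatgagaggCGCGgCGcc
Rptor peak edge: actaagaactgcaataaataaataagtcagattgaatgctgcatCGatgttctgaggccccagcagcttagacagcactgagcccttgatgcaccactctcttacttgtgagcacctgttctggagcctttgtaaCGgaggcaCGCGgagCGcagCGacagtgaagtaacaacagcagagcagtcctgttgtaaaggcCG
Rptor upstream of the start: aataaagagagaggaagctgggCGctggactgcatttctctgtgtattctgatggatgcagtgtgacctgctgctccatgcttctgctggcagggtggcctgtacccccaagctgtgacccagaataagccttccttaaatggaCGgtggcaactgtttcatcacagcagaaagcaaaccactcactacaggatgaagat
Rnase6 peak edge: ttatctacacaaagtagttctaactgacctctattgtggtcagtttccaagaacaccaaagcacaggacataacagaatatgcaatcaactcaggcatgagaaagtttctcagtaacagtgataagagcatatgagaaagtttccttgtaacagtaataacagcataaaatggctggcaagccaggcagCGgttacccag
Rnase6 upstream of the start: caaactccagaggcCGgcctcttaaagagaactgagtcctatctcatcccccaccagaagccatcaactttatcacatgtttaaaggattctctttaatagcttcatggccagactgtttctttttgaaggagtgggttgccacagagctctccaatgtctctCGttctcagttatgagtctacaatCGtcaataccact
Cadm3 peak edge: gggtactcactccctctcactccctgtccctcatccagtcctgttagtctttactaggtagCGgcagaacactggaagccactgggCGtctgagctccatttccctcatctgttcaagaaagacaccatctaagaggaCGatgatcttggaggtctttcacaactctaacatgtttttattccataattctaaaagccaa
Cadm3 upstream of the start: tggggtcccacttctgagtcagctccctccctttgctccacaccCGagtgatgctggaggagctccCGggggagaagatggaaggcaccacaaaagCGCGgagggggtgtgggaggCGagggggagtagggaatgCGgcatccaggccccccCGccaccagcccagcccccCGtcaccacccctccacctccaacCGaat

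The Rnf24 flank held 3 CG in 200 bases, whereas the bases before its start held 20. For Cadm3 the counts were 3 and 9, and for Rnase6 1 and 3. Rptor showed the reverse, with 7 CG in the peak edge and 2 before the start, and its flank peaks lay in an intron of another annotated transcript. Over all flank peaks, the 200 bases nearest the start held a median of 2 CG (quartiles 1 and 3) in each of the 4 lists, and between 17.4% and 19.6% of these windows had none. The 200 bases upstream of their starts had a median of 4 CG in each list, which was also the median over all 130567 starts of GENCODE vM21.

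Flank peaks made up a similar, small share of every list. The share was 6.48% (5.87 to 7.14%) in the Ezh2m+/p+ maternal list and 6.79% (6.43 to 7.17%) in the Ezh2m+/p+ paternal list. In Ezh2m-/p+ zygotes it was 7.11% (6.61 to 7.64%) in the maternal and 6.01% (5.71 to 6.33%) in the paternal list. With 1 library for each genotype, these intervals cannot tell a difference between genotypes from one between libraries. Peaks within 1 kb of a start were more numerous than flank peaks in each list, with 9.33% and 10.5% of the Ezh2m+/p+ maternal and paternal peaks and 9.43% and 10.9% of the Ezh2m-/p+ ones. The annotation limits did not fall at a gap in the distances, since 17, 79, 33 and 74 peaks of the 4 lists lay within 100 bp outside the 1 kb limit, against 20, 74, 24 and 74 within 100 bp inside it.

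The share of flanking sequence inside listed peaks differed more between the parental genomes than between the genotypes. It counts bases in called peaks and does not measure the level of the mark. Sequence at 1 to 3 kb from the nearest start measured 244 Mb in GENCODE vM21. Maternal coverage was 0.750% for Ezh2m+/p+ against 1.06% for Ezh2m-/p+, and paternal coverage 2.19% against 3.30%. In the paternal genome coverage rose step by step towards the start. In Ezh2m+/p+ zygotes it was 1.94% at 5 to 10 kb upstream, 2.07% at 3 to 5 kb, 2.10% at 2 to 3 kb, 2.18% at 1 to 2 kb and 2.38% in the last kb, against 1.67% of the whole genome. The Ezh2m-/p+ paternal peaks showed the same order, from 2.98% at 5 to 10 kb to 3.17% at 2 to 3 kb, 3.32% at 1 to 2 kb and 3.63% in the last kb. In the maternal genome there was no such climb. The Ezh2m+/p+ maternal coverage was 0.865% at 5 to 10 kb upstream, 0.749% at 2 to 3 kb, 0.753% at 1 to 2 kb and 0.786% in the last kb, and that of Ezh2m-/p+ 1.23%, 1.07%, 1.07% and 1.11%. Both maternal flanks therefore lay in a shallow dip between the start and the sequence farther out, and only a little above the 0.708% and 0.939% of the whole genome. Downstream flanks repeated the pattern of the upstream ones in all 4 lists.

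**Figure D1:**
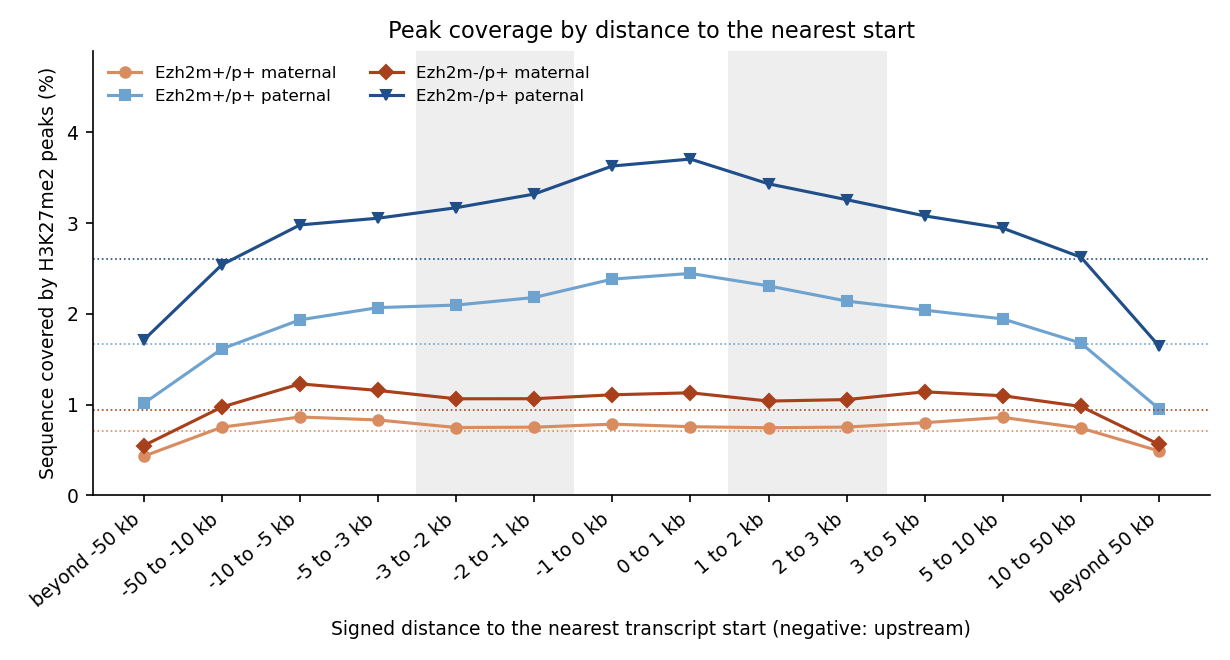
Percentage of sequence covered by H3K27me2 peaks (vertical axis) by signed distance to the nearest transcript start (horizontal axis, negative is upstream), 1 line for each of the 4 peak lists, with the flank bins shaded and the genome-wide percentage of each list dotted. The paternal lines climb through the flanks to their highest value within 1 kb, 3.71% downstream of the start for Ezh2m-/p+, while the maternal lines stay between 0.746% and 1.07% in the flanks.

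Upstream and downstream flanks were marked about equally. Of the flank peaks, 178 of 372 (47.8%, 42.8 to 52.9%) of the Ezh2m+/p+ maternal and 571 of 1213 (47.1%, 44.3 to 49.9%) of the Ezh2m+/p+ paternal list lay upstream. The Ezh2m-/p+ counts were 345 of 683 (50.5%, 46.8 to 54.2%) and 653 of 1372 (47.6%, 45.0 to 50.2%). Upstream sequence made up 48.7% of all sequence at 1 to 3 kb from a start, a value inside all 4 intervals. Most downstream flank peaks touched the transcript whose start they were measured from, between 82.6% and 90.7% of them in the 4 lists. Upstream flank peaks touched some annotated transcript in 57.6% to 60.9% of cases, close to the 56.8% to 63.6% of all peaks. An upstream flank peak thus often touched a neighbouring gene or a longer transcript of the same gene, as peaks of the whole lists often touched a transcript. The inner flank at 1 to 2 kb held 47.8% of the flank peaks in the Ezh2m+/p+ maternal list, and 52.3%, 51.4% and 52.6% in the Ezh2m+/p+ paternal, Ezh2m-/p+ maternal and Ezh2m-/p+ paternal lists. In bins of 250 bp the highest paternal counts lay close to the 1 kb limit on the downstream side, with 94 peaks (Ezh2m+/p+) and 113 peaks (Ezh2m-/p+) in the fullest bin.

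**Figure D2:**
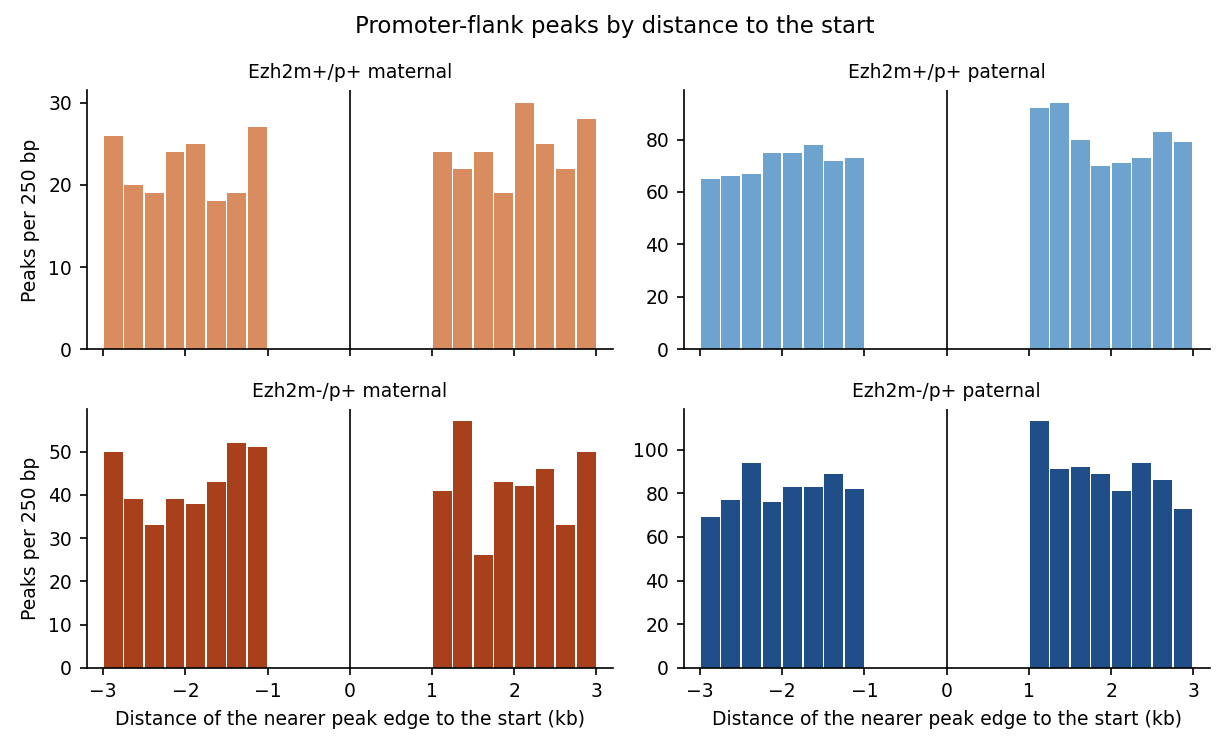
Number of flank peaks (vertical axis) in bins of 250 bp of the distance from the nearer peak edge to the start in kb (horizontal axis, negative is upstream), 1 panel for each peak list. Bars stand on both sides of the start at similar heights, and no bin is empty.

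By rule a flank peak stops more than 1 kb from its nearest start, so it leaves out the sequence around that start. Reference sequence held 1.79 CpG per 100 bp within 1 kb of a start and 0.924 at 1 to 3 kb. The median of flank peaks was highest in the Ezh2m+/p+ maternal list, at 1.05 CpG per 100 bp, and lowest in the Ezh2m-/p+ paternal list, at 0.940. Peaks within 1 kb of a start had medians of 1.21 and 1.41 in these lists, and of 1.46 and 1.33 in the Ezh2m+/p+ paternal and Ezh2m-/p+ maternal ones. The mean of the flank peaks, between 1.03 and 1.12, was above the 0.924 CpG per 100 bp of all sequence in the flanks. The means over all peaks were 1.01, 1.02, 1.05 and 0.980, also above the 0.834 of the genome, so this was common to the whole lists. Downstream flank peaks were richer in CpG than upstream ones in each list, with medians of 1.10 against 0.929 in the Ezh2m+/p+ maternal and 1.07 against 0.950 in the Ezh2m+/p+ paternal list. Repeat-masked sequence made up a mean of 23.4%, 25.0%, 23.7% and 25.5% of the flank peaks, below the 29.7% of all flanking sequence. The means over all peaks were close to these, at 22.3%, 24.5%, 21.7% and 25.2%, so a low repeat content was common to the whole lists.

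The kind of promoter next to a flank peak was also described. A start was counted as CpG-rich when the window from 250 bases before to 50 after it had at least 50% GC and an observed over expected CpG ratio of at least 0.6, which held for 29.5% of all starts. The starts of flank peaks were CpG-rich in 27.7% (103 of 372) and 27.5% (187 of 680) of cases in the Ezh2m+/p+ and Ezh2m-/p+ maternal lists, and in 23.3% (276 of 1183) and 24.0% (318 of 1327) in the paternal lists. For the starts of peaks within 1 kb the shares were 14.2% and 20.7% in the maternal and 23.1% and 24.9% in the paternal lists. Over all peaks with a matched start the shares were 27.6% and 28.7% in the maternal and 26.3% and 27.1% in the paternal lists. The maternal flank shares were thus near those of their whole lists and above those of peaks at the start itself, while the paternal shares at flank and start were alike. Flank peaks were assigned to protein-coding genes in 91.5% to 92.7% of cases, against 85.5% to 86.6% of all peaks, and 37.8% to 41.7% touched an exon, against 25.0% to 28.7% of all peaks. Flank peaks lie near a start by rule, whereas all peaks include distal ones, and the shares over all flanking sequence were not computed. Chromosome X held 8 and 12 paternal flank peaks, which were 0.660% and 0.875% of the paternal flank peaks, whereas it held 3.22% and 4.32% of all paternal peaks. The maternal counts were 1 and 5, or 0.269% and 0.732%, against 0.731% and 1.24% of all maternal peaks. The share of flanking sequence that lies on chromosome X was not computed.

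The fold of a peak is the ratio of H3K27me2 to input reads that the authors' peak caller computed, and its scale need not be the same in each list. Flank peaks had a median fold of 7.20 (quartiles 5.70 and 36.2) in the Ezh2m+/p+ maternal and 22.9 (8.75 and 29.1) in the Ezh2m-/p+ maternal list. In the paternal lists the medians were 36.1 (upper quartile 60.2) for Ezh2m+/p+ and 15.8 (upper quartile 70.9) for Ezh2m-/p+. These values followed those of all peaks, whose medians were 7.37, 23.7, 36.1 and 15.8 in the same order. Maternal folds fell into a low and a high group with a gap between them. In the Ezh2m+/p+ maternal list no flank peak had a fold between 16.4 and 28.1, and 131 of 372 (35.2%, 30.5 to 40.2%) lay above the gap. In the Ezh2m-/p+ maternal list the gap ran from 12.4 to 15.3, and 494 of 683 (72.3%, 68.9 to 75.6%) lay above it. The difference between the maternal medians therefore moved with the share of peaks in the high group, which over all peaks was 36.9% and 74.1%. Peaks above the gap were also shorter, with median lengths of 2199 against 3199 bp for Ezh2m+/p+ and 1799 against 3399 bp for Ezh2m-/p+. Paternal folds were stepped, and 484 of 1213 Ezh2m+/p+ flank peaks (39.9%) had one of the 3 values 36.1, 48.1 and 60.2. Whether few reads in the input or the scaling of the libraries set these groups and steps was not tested.

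**Figure D3:**
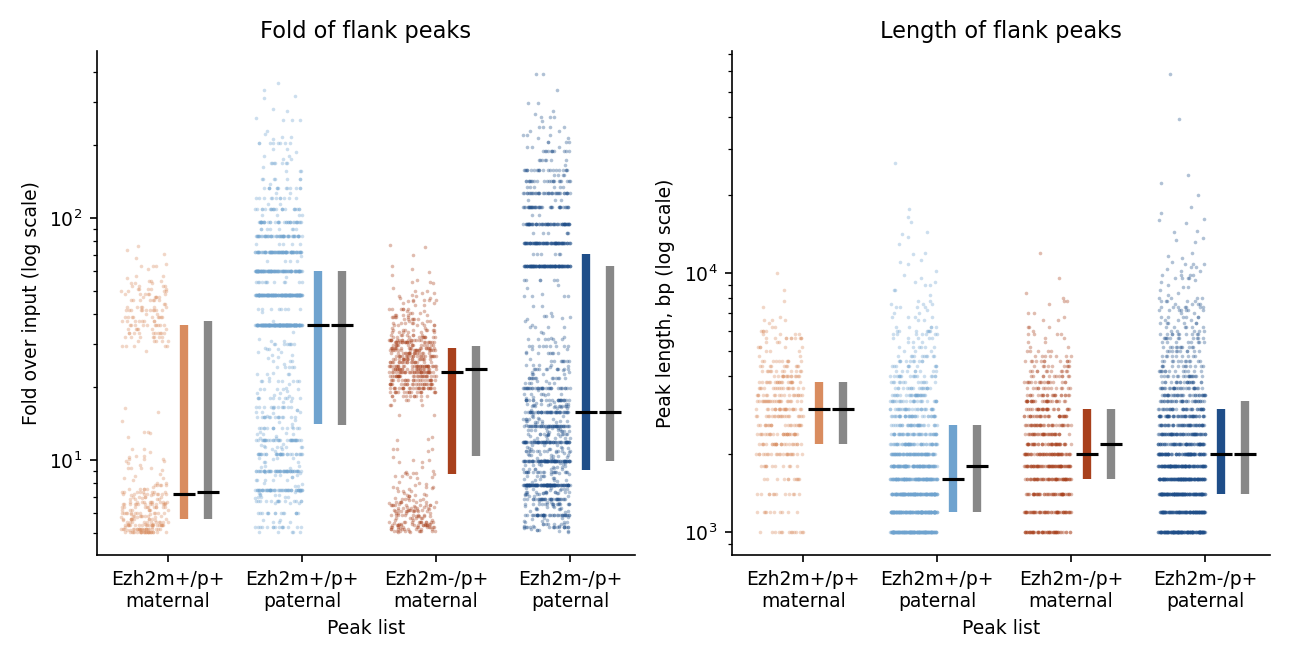
Fold over input (left) and peak length in bp (right), both on log scales, of every flank peak in the 4 lists (points), with vertical bars from the lower to the upper quartile and black dashes at the median for flank peaks (coloured) and all peaks (grey). The maternal points split into a lower and an upper cloud, the paternal points form horizontal rows, and the flank medians lie at or near those of all peaks.

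Flank peaks were longest in the Ezh2m+/p+ maternal list, with a median of 2999 bp (quartiles 2199 and 3799). The medians were 1599 bp in the Ezh2m+/p+ paternal list and 1999 bp in both Ezh2m-/p+ lists. All peaks had medians of 2999 and 2199 bp in the maternal and 1799 and 1999 bp in the paternal lists. Peaks within 1 kb had medians of 1999 and 2399 bp in the paternal lists and of 2999 and 2199 bp in the maternal lists. These were above the flank medians in 3 of the 4 lists and equal in the Ezh2m+/p+ maternal one. Length is bound to the class, since a long peak beside a start reaches within 1 kb of it. The longest flank peaks were 9999 bp beside Cdc40, a splicing factor, in the Ezh2m+/p+ maternal list and 26599 bp beside Pigm, an enzyme of GPI anchor synthesis, in the Ezh2m+/p+ paternal list. Those of the Ezh2m-/p+ lists measured 11999 bp beside Aknad1 in the maternal and 58799 bp beside Dad1, a subunit of the oligosaccharyltransferase, in the paternal list. Their folds were low, 6.95, 12.3, 5.55 and 8.25.

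The flank peaks of highest fold bordered different genes in each list. In the Ezh2m+/p+ maternal list they lay 1660 bp upstream of Nasp, a histone chaperone (chr4:116629601-116634199, fold 76.4), 2067 bp downstream of a start of Ttll4, a tubulin glutamylase (fold 73.7), 2896 bp upstream of Myof (71.0) and 1254 bp upstream of Srgap2 (68.4). Nasp had no other peak in any list. Leading peaks of the Ezh2m-/p+ maternal list lay 2875 bp downstream of a start of Foxn3, a forkhead repressor (chr12:99442601-99447199, fold 75.7), 2028 bp upstream of Paqr5, a membrane progestin receptor (70.4), and 2291 bp upstream of Kcnk10, a background potassium channel (63.5). Paqr5 had 2 peaks in this list and none in the others. The maternal leaders named here for the genotypes had no gene in common, although Ttll4, Myof, Foxn3 and Kcnk10 had peaks in both maternal lists. Of all genes with a maternal flank peak, 9.54% (Ezh2m+/p+) and 5.33% (Ezh2m-/p+) had one in both genotypes.

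Paternal flank peaks reached higher folds. In Ezh2m+/p+ zygotes the highest lay 2172 bp upstream of a start of Igsf8, an immunoglobulin superfamily protein (chr1:172304401-172309599, fold 361). It was followed by Polr2f, a shared subunit of the RNA polymerases (337), Astn1, a neuronal migration protein (319), and Pax7, a factor of muscle progenitors (313). At the top of the Ezh2m-/p+ list Gmds, an enzyme of fucose synthesis (chr13:32330201-32336799), and Luzp1 (chr4:136522801-136530799) shared the highest fold of 394, ahead of Kdf1 (339) and Abl2, a tyrosine kinase (299). None of these 8 paternal genes had a maternal flank peak in either genotype, and Gmds with 1 peak was the only one with any maternal peak. This was the common state, since 87.3% (Ezh2m+/p+) and 82.0% (Ezh2m-/p+) of all genes with a paternal flank peak had no maternal peak in that genotype. The Polr2f peak (chr15:79152001-79157199) was overlapped in Ezh2m-/p+ zygotes by a paternal peak of 10199 bp that the annotation assigned to the neighbouring Sox10, a neural crest factor, with a fold of 9.70. Pax7 had 20 and 12 paternal peaks in Ezh2m+/p+ and Ezh2m-/p+ zygotes but a flank peak only in Ezh2m+/p+.

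Paternal flank peaks had another peak nearby more often than maternal ones, in lists of unequal length. Another peak of the same list lay within 10 kb, measured between peak centres, for 761 of 1213 (62.7%) Ezh2m+/p+ and 856 of 1372 (62.4%) Ezh2m-/p+ paternal flank peaks. For maternal flank peaks it was 40 of 372 (10.8%) and 117 of 683 (17.1%). The shares over all peaks, 59.4% and 59.7% in the paternal and 11.3% and 17.2% in the maternal lists, were close to these. Of the 367 Ezh2m+/p+ and 657 Ezh2m-/p+ genes with a maternal flank peak, 10.4% and 11.7% also had a peak within 1 kb of a start, and 58.3% and 54.3% had no other peak at all. Of the 1026 and 1193 genes with a paternal flank peak, 37.6% and 40.2% also had a peak within 1 kb of a start, and 27.5% and 24.4% had no other peak. The same shares over all genes with a peak were not computed, so nothing particular to flank genes is read from them. With lists of equal size the genes that also had a peak within 1 kb came to 10.4% and 6.90% (maternal) against 15.7% and 11.4% (paternal). A start flanked on both sides was rare, with 0 and 3 maternal and 30 and 45 paternal starts, and of these 3 maternal and 23 and 29 paternal starts had no listed peak within 1 kb. By gene rather than by start, 69 of 111 (62.2%) and 64 of 108 (59.3%) genes with paternal flank peaks on both sides had a peak within 1 kb of one of their starts.

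A few genes had flank peaks at several of their starts. Ank2, which encodes the membrane adaptor ankyrin-B, had 7 flank peaks in the Ezh2m+/p+ and 5 in the Ezh2m-/p+ paternal list, among 80 and 66 peaks assigned to it. Its Ezh2m+/p+ flank peaks ran from a fold of 8.28 to 108, and its Ezh2m-/p+ ones from 5.42 to 52.7. The peak 2848 bp downstream of a start of Ank2 had a fold of 108 in Ezh2m+/p+ zygotes, while the peak listed 1848 bp from a start in Ezh2m-/p+ zygotes, at chr3:127222601-127223999 and overlapping the former, had 7.39. Astn1 had 5 flank peaks in Ezh2m+/p+ zygotes, with folds of 60.2, 48.1, 319, 96.3 and 253, and 3 in Ezh2m-/p+ zygotes. Capn3, a muscle protease, had 5 in the Ezh2m-/p+ paternal list with folds from 7.88 to 29.6 and 2 in the Ezh2m+/p+ list. Neither Ank2, Astn1 nor Capn3 had a maternal peak in any flank. Of all genes with a paternal flank peak, 1.07% (Ezh2m+/p+) and 2.01% (Ezh2m-/p+) had a maternal flank peak in the same genotype. In the maternal lists no gene had more than 3, a number that Phf21a, C2cd5, Rptor and Itsn2 reached in Ezh2m-/p+ zygotes, and Abl1 and Sp100 had 2 each in Ezh2m+/p+ zygotes.

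The next comparison asked whether flank peaks stood at the same place in zygotes with and without maternal EZH2, as labelled. In the paternal genome 813 of 1213 Ezh2m+/p+ flank peaks (67.0%, 64.3 to 69.6%) shared at least 1 bp with a peak of the Ezh2m-/p+ paternal list. This share was near the 66.1% of all Ezh2m+/p+ paternal peaks and below the 73.2% (71.1 to 75.1%) of peaks within 1 kb. An overlap of at least 50% of both peaks was rarer, at 32.1% (Ezh2m+/p+) and 26.7% (Ezh2m-/p+) of paternal flank peaks. In the other direction 653 of 1372 Ezh2m-/p+ flank peaks (47.6%, 45.0 to 50.2%) met one of the Ezh2m+/p+ paternal list, where 45.7% of the whole Ezh2m-/p+ paternal list did and 55.8% (53.9 to 57.8%) of those within 1 kb. In the maternal genome overlap was rarer, but the paternal lists are also longer. In lists cut to equal size the paternal shares fell to 12.3% and 15.3%, against 4.84% and 5.93% in the maternal lists. In the full lists it was found for 30 of 372 Ezh2m+/p+ flank peaks (8.06%, 5.71 to 11.3%), against 9.47% of all peaks, and for 34 of 683 Ezh2m-/p+ flank peaks (4.98%, 3.58 to 6.88%), against 5.78% of all peaks. Upstream and downstream flanks were alike, with 66.7% and 67.3% in the Ezh2m+/p+ paternal list. The flank shares were thus near those of the whole lists, and in the paternal genome the peaks at starts stood above both. The paternal peaks at starts were also longer than flank peaks, with medians of 1999 against 1599 bp (Ezh2m+/p+) and 2399 against 1999 bp (Ezh2m-/p+). A longer peak more readily shares 1 bp with another, and the part of length was not tested.

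Where a flank peak was overlapped, the peak of the other genotype was often placed in another class. Of the 813 overlapped Ezh2m+/p+ paternal flank peaks, 414 (50.9%) met a Ezh2m-/p+ flank peak and 337 (41.5%) one that reached within 1 kb of a start. The Ezh2m-/p+ peak was the longer one in 606 cases (74.5%), near the 71.2% of all overlapped Ezh2m+/p+ paternal peaks, and in 497 (61.1%) it reached nearer the start that the Ezh2m+/p+ peak was measured from. Of the 653 overlapped Ezh2m-/p+ paternal flank peaks, 392 met a Ezh2m+/p+ flank peak and 97 (14.9%) one within 1 kb. Flank peaks were thus the commonest class met in both directions, and peaks within 1 kb came next. In the maternal genome 18 of the 30 overlapped Ezh2m+/p+ flank peaks met a Ezh2m-/p+ flank peak and 8 a peak within 1 kb.

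**Figure D4:**
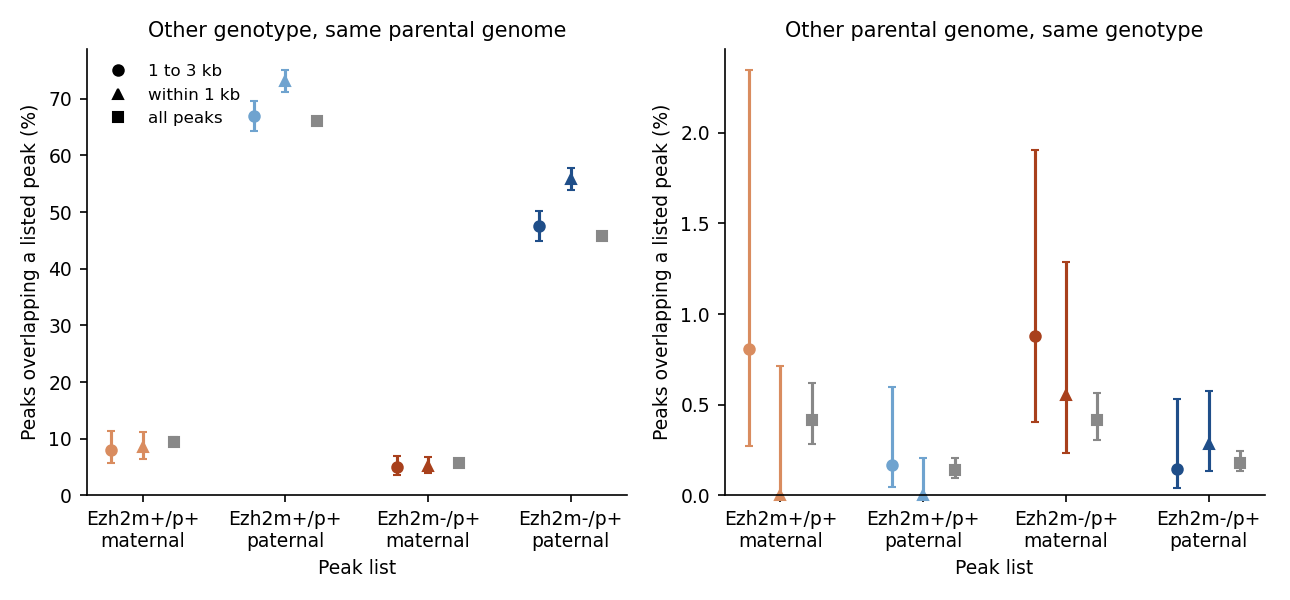
Percentage of peaks that overlap a listed peak (vertical axis) of the other genotype in the same parental genome (left) or of the other parental genome in the same genotype (right, on a smaller scale) for the 4 lists, with circles for flank peaks, triangles for peaks within 1 kb of a start, grey squares for all peaks and bars for 95% Wilson intervals. Paternal flank peaks overlap the other genotype at 67.0% and 47.6%, maternal ones at 8.06% and 4.98%, and overlap between parental genomes stays under 1% for flank peaks.

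Genes were compared in the same way, and again the counts depend on the length of the lists. Among 49554 RefSeq genes, 0.741% had a flank peak in the Ezh2m+/p+ maternal, 2.07% in the Ezh2m+/p+ paternal, 1.33% in the Ezh2m-/p+ maternal and 2.40% in the Ezh2m-/p+ paternal list. Both genotypes had a paternal flank peak at 491 genes, which were 47.9% of 1026 in Ezh2m+/p+ zygotes and 41.2% of 1193 in the other genotype, and on the same side at 410 of them. Of the 535 genes with a paternal flank peak in Ezh2m+/p+ zygotes alone, 282 had a Ezh2m-/p+ peak within 1 kb of a start, 148 another peak and 105 none. Those 105 were 10.2% of the 1026, where 13.3% of all genes with a Ezh2m+/p+ paternal peak had none. Of the 702 genes found in Ezh2m-/p+ zygotes alone, 189 had a Ezh2m+/p+ peak within 1 kb, 283 another peak and 230 none, which was 19.3% of the 1193 against 25.9% of all genes with a Ezh2m-/p+ paternal peak. The maternal lists shared 35 genes, 9.54% of 367 and 5.33% of 657. In lists of equal size 64 paternal and 22 maternal genes were shared. Of the 332 genes of the Ezh2m+/p+ maternal list alone, 184 had no Ezh2m-/p+ maternal peak, and of the 622 genes of the Ezh2m-/p+ maternal list alone, 433 had no Ezh2m+/p+ maternal peak. These counts stand beside the whole lists. No peak of the other maternal list was annotated to 50.1% and 65.9% of the flank genes, nor to 42.0% and 60.0% of all genes with a maternal peak.

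The genes whose flank peaks overlapped in both genotypes are given by the lower of both folds. In the maternal genome Rnf24 led with folds of 38.9 (Ezh2m+/p+) and 45.9 (Ezh2m-/p+), at 2309 and 1909 bp upstream. Rptor followed with 50.9 and 36.7. Cxcr5, a chemokine receptor of B cells, had a peak with the same ends in both lists (chr9:44564601-44565999, 2724 bp upstream) and folds of 45.6 and 26.0. Madd (12.9 and 35.2) and Eapp (10.1 and 21.4) came next, and their folds lay on different sides of the maternal gaps. In the paternal genome Rnase6 had folds of 156 and 158, Rpl11, a protein of the large ribosomal subunit, 120 and 150, and Pik3c2g, a lipid kinase, 120 and 236. The paternal peaks of 4933428G20Rik (120 and 189) and Cadm3 (108 and 173) were next. The Rpl11 peaks, at chr4:136048201-136049399 and chr4:136048001-136049199, differed by 200 bp at each end.

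Equal position did not mean equal fold. Over the 18 maternal pairs of overlapping flank peaks of the same gene, the ratio of the Ezh2m-/p+ to the Ezh2m+/p+ fold had a median of 2.43 and ran from 0.124 to 9.74, and 11 pairs lay on different sides of the gaps, 10 of them with the Ezh2m-/p+ peak above. Over the 417 paternal pairs the median was 0.655, the range 0.0347 to 31.4, and 141 pairs (33.8%) were more than 5 times apart. Gabbr1, a subunit of the GABA-B receptor, was the widest example among the gene lists, with a paternal fold of 7.02 (Ezh2m+/p+) against 221 (Ezh2m-/p+) for peaks 1245 and 1045 bp upstream of the same start. Kcnn4, a calcium-activated potassium channel, went the other way, with 169 and 7.88 at 2431 and 2231 bp downstream. In the maternal genome Gramd1b had 5.03 and 48.9.

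Within a genotype the parental genomes hardly shared flank peaks. In Ezh2m+/p+ zygotes 3 of 372 maternal flank peaks (0.806%, 0.275 to 2.34%) overlapped a paternal peak, against 0.418% of all maternal peaks, and 2 of 1213 paternal flank peaks (0.165%, 0.0452 to 0.599%) overlapped a maternal peak, against 0.140% of all. In Ezh2m-/p+ zygotes it was 6 of 683 maternal (0.878%, 0.403 to 1.90%), against 0.416% of all, and 2 of 1372 paternal flank peaks (0.146%, 0.0400 to 0.530%), against 0.180% of all. These counts are too small to separate flanks from the rest of the lists. Genes with a flank peak in both parental genomes numbered 11 of 367 maternal and 1026 paternal genes for Ezh2m+/p+, and 24 of 657 and 1193 for Ezh2m-/p+. With the fold limit at 10 they numbered 2 and 14, and in lists of equal size 4 and 5. A peak of any class in the other parental genome was annotated to 21.8% of the maternal and 12.7% of the paternal flank genes (Ezh2m+/p+), below the 27.2% and 19.4% of all genes with a peak. For Ezh2m-/p+ it was 21.0% and 18.02%, below 28.95% and 25.5%. Only 3 of the 11 and 11 of the 24 had both peaks on the same side of a start. Of the 2668 genes with any flank peak, 2108 had one in 1 list, 545 in 2, 15 in 3 and 0 in all 4.

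Of the 5 leading genes with flank peaks from both parents in each genotype, Tspoap1 alone had them over the same sequence. In Ezh2m+/p+ zygotes Rftn1, a lipid raft protein, had a maternal peak 1469 bp upstream (fold 44.2) and a paternal peak 2133 bp downstream (72.2) of the same start, and Arrb1, which encodes an arrestin, had 37.5 at 2132 bp and 60.2 at 1297 bp downstream. Gm36283 and Cxcr5 followed with lower folds of 9.21 and 9.03. In Tspoap1 the maternal peak chr11:87782601-87786599 (fold 8.71) contained a paternal one, chr11:87783201-87784399 (7.52), and another paternal flank peak had a fold of 48.1. Among Ezh2m-/p+ genes Cntn2, an axonal adhesion protein, had 32.9 in the maternal and 94.6 in the paternal genome, and Cemip, a hyaluronan-binding protein, 31.4 and 94.6. Kif5b, a kinesin (29.8 and 78.8), Sin3b, a corepressor (29.1 and 63.0), and Ptar1 (28.3 and 63.0) followed.

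Among the genes of H3K27 methylation, 3 of 18 had a flank peak, each in 1 list, which was 16.7%. Over all RefSeq genes 5.38% had a flank peak in any list, but the gene lists hold almost only protein-coding genes, of which 11.2% had one (2431 of 21631). By list it was 1.57% and 2.80% in the maternal and 4.29% and 5.02% in the paternal genome, Ezh2m+/p+ first, and the gene lists are set beside these shares. Ezh1, the alternative catalytic subunit of PRC2, had one 1579 bp upstream in the Ezh2m+/p+ maternal list (chr11:101196001-101198399), with a fold of 5.03, near the limit of the lists. Ehmt1, a lysine methyltransferase, had one 1592 bp downstream of a start in the Ezh2m-/p+ maternal list (19.9), and Epop, a PRC2-associated protein, one 1903 bp downstream in the Ezh2m-/p+ paternal list (78.8). Eed and Suz12, the other core subunits, had none. Of 34 genes known to be silenced on the maternal allele through oocyte H3K27me3, 2 had a maternal flank peak in each genotype, Gramd1b and Myrip in Ezh2m+/p+ and Gramd1b and Sfmbt2 in Ezh2m-/p+ zygotes. That was 6.45% of the 31 protein-coding members each time, and 6 of them (19.4%) had a flank peak in any list. In the paternal genome Epas1 had 2 flank peaks in each genotype, and Epop and Otx2 had one in Ezh2m-/p+ zygotes. Of 53 canonical imprinted genes, Plagl1, a zinc finger factor, had a paternal flank peak in Ezh2m+/p+ zygotes (84.3). Among the Ezh2m-/p+ lists Commd1, Igf2r and Phlda2 had a maternal and Asb4, H13 and Trpm5 a paternal one. These 7 genes were 15.2% of the protein-coding members of their list, and each had its flank peak in 1 list, as did 2108 of the 2668 genes with any flank peak.

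Of 65 oocyte and maternal-effect genes 4 had a flank peak in any list (6.15%), below the 11.2% of protein-coding genes. Npm2, a chaperone of the oocyte nucleus (6.77), and Oosp2, an oocyte secreted protein (48.1), had paternal ones in Ezh2m+/p+ zygotes. Padi6, of the oocyte cytoplasmic lattices (7.27, paternal), and Dppa3, which guards maternal DNA methylation (22.2, maternal), had them in Ezh2m-/p+ zygotes. Of 77 genes of zygotic genome activation only Sp110 (1.30%) had one, 1210 bp upstream in both paternal lists, with folds of 21.8 and 8.54. None of 12 histone genes matched by symbol had a flank peak.

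Chemosensory receptor genes, which lie in large clusters, had flank peaks mainly in the paternal lists, as protein-coding genes did in general. Of 1479 olfactory and vomeronasal receptor genes, 44 (2.97%) had a flank peak in the Ezh2m+/p+ paternal and 56 (3.79%) in the Ezh2m-/p+ paternal list, but 1 (0.0676%) and 9 (0.609%) in the maternal lists. These shares were below those of protein-coding genes in each of the 4 lists. Against all RefSeq genes, which include many noncoding ones, the maternal shares were below (0.741% and 1.33%) and the paternal ones above (2.07% and 2.40%), so the paternal direction depends on the genes it is set against. Olfr324 (189) and Olfr1140 (158) had the highest folds, both in the Ezh2m-/p+ paternal list, and Olfr1262 was the gene found in both maternal lists (7.37 and 5.45). Members of such families are alike in sequence, and how reads were divided among them was not tested. Zinc finger genes named Zfp had 18 and 25 members of 403 in the paternal (4.47% and 6.20%) and 2 and 12 in the maternal lists (0.496% and 2.98%), with Zfp418 and Zfp365 highest (173 each).

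Developmental and neuronal gene lists had flank peaks in both parental genomes. The share of protein-coding members with a flank peak in any list was 7.89% for homeobox genes and 9.64% for Sox, Fox, Tbx and Gata genes, below the 11.2% of protein-coding genes. It was above that for Wnt, Fgf, Bmp and Tgfb genes (17.3%), ion channels (16.5%), glutamate and GABA receptors (16.7%) and axon guidance genes (21.1%). By list, homeobox genes ranged from 0.654% in the Ezh2m+/p+ maternal to 4.58% in the Ezh2m-/p+ paternal list. Homeobox genes had 1, 3, 3 and 7 of 153 members in the Ezh2m+/p+ maternal, Ezh2m+/p+ paternal, Ezh2m-/p+ maternal and Ezh2m-/p+ paternal lists, the last including the antisense gene Nkx2-2os, with Pax7 (313) and Lhx4 (142) highest. Sox, Fox, Tbx and Gata genes had 2, 3, 2 and 3 of 83, with Foxn4 (94.6) and Foxd4 (84.3) highest, and Foxn3 in both maternal lists and Sox10 in both paternal lists. Wnt, Fgf, Bmp and Tgfb ligands and receptors had 3, 6, 4 and 7 of 98, among them Lrp5, a Wnt coreceptor (189), and Fgf7 (84.3). Ion channel genes had 6, 7, 5 and 7 of 137, with the potassium channel genes Kcnh1 (213) and Kcne3 (197) highest. Glutamate and GABA receptors had 1, 2, 3 and 5 of 49, with Gabbr1 and Gabra5 (94.6) highest. Axon guidance genes had 2, 5, 6 and 4 of 71, among them Sema3b (94.6) and Unc5a (63.0), a semaphorin and a netrin receptor.

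Structural gene lists were mixed, with 10.5% of cadherins, 14.7% of collagens and integrins and 9.21% of ribosomal protein genes flanked in any list, on both sides of the 11.2% of protein-coding genes. Cadherins and protocadherins had 1, 4, 4 and 2 of 105 members in the same order of lists, with Pcdh12 (132) and Pcdhb7 (48.1) highest. Collagens and integrins had 3, 6, 3 and 2 of 75, with Col11a2 (84.3) and Col16a1 (78.8) highest. Ribosomal protein genes had none in the Ezh2m+/p+ maternal and 1 in the Ezh2m-/p+ maternal list, but 5 and 3 of 76 in the paternal lists. Rpl11 and Rps6 were flanked in both genotypes, and the Rps6 folds were 84.3 and 5.42. Most lists are small, and no list was tested.

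**Figure D5:**
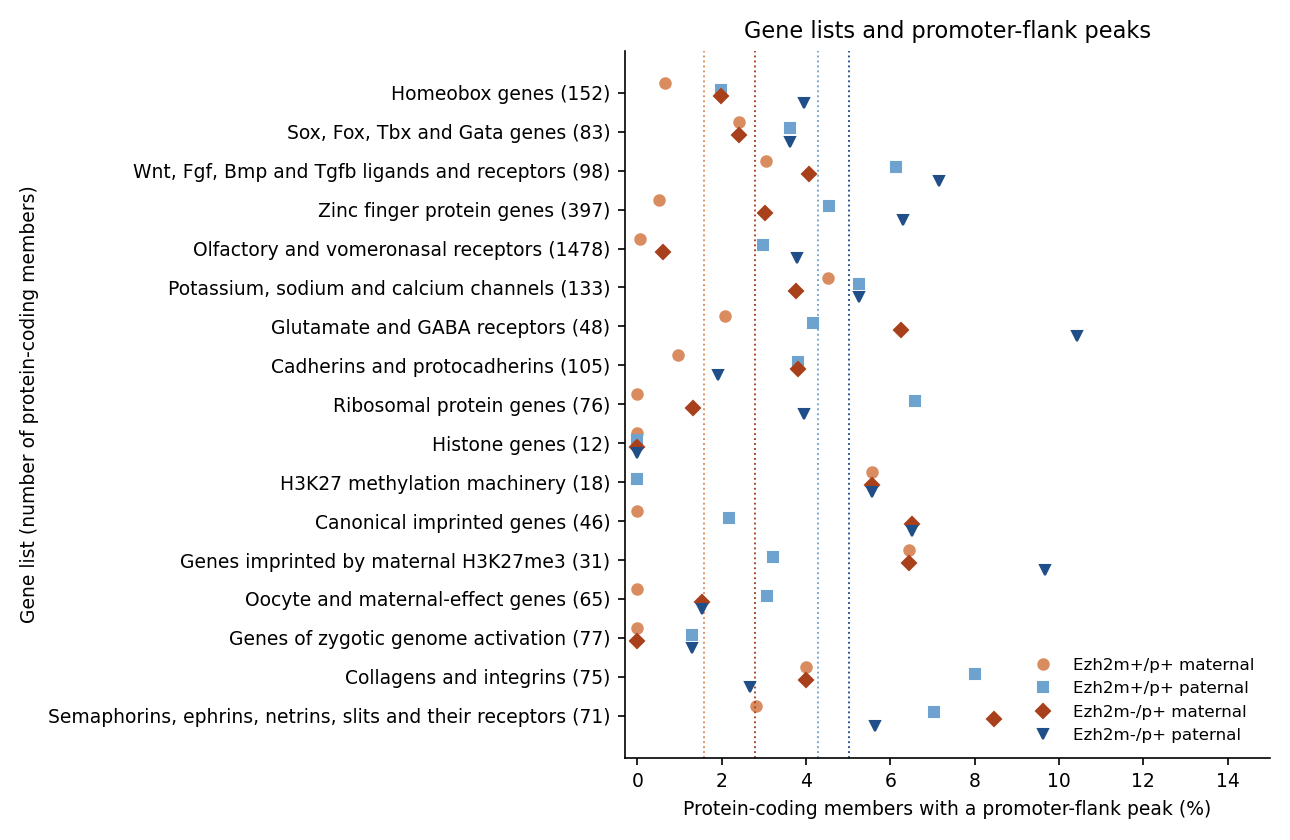
Percentage of the protein-coding members of each gene list (vertical axis, with their number) that have a flank peak (horizontal axis) in each of the 4 peak lists, with dotted lines at the percentage over all protein-coding genes. Olfactory and vomeronasal receptors lie left of the dotted line of the same color in each list, at 0.0677% and 0.609% maternal and 2.98% and 3.79% paternal.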

How the data were processed

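H3K27me2 ChIP and input libraries of 2 zygote genotypes, 1 each, were described by the submitters. Per the labels and the paper's methods, the authors used Trimmomatic 0.38 for trimming, Bowtie2 for alignment to mm10 and Picard for duplicates, assigned reads to the maternal or paternal genome with SNPsplit and called peaks with SICER against the input. Peaks longer than 1000 bp whose fold exceeded 5 were retained per the methods, and ChIPseeker supplied the annotation. The shortest listed length is 999 bp. The deposited lists give the fold, a ratio of H3K27me2 to input reads computed by the authors' peak caller, and the position, length and distance to the nearest start of each peak. No read counts are in the lists, so depth per peak is unknown here. The deposited table of chromosome coverage was not used here.

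Flank peaks were taken by their annotation. Every listed distance was measured from the nearer peak edge. A shared base (1 bp) was enough for 2 peaks to count as overlapping, and genes were compared by the identifier in the annotation. Of 2668 genes, 2664 matched a RefSeq symbol. Sequence and distance zones came from GRCm38.p6 and GENCODE vM21, where the transcripts named by 98.1% to 98.7% of the flank peaks of a list had the same ends. Shares have 95% Wilson intervals. Python 3.11.15, numpy, pandas and matplotlib were used, and the overlap and distance code was tested on simulated data. Alternatives were raising the fold limit to 10 or the length limit to 2000 bp, flanks by distance alone, leaving out chromosome X, lists cut to 5744 peaks by fold, protein-coding genes, genes in place of peaks and a reciprocal overlap of 50%. The gap and steps in the folds were examined, and the shares over protein-coding genes and over whole lists were added, after the data were seen.

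The peaks and the 17 gene lists were chosen with earlier results of these data known. Named genes followed a rule: the 4 flank peaks of highest fold and the longest of each list, the 5 genes per parental genome with overlapping flank peaks in both genotypes and per genotype with flank peaks from both parents by the lower fold, 2 of each gene list by fold, and the 2 with most flank peaks. Other members of the gene lists that the text names were picked after their values were seen. Sequences were printed for the leading 2 genes per parental genome of which the windows touched no exon. One of the genes that this rule selects is not reported here.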

Additional observations from a re-analysis of the deposited data

Results flagged for a closer look

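The genotype difference ran in opposite directions in the parental genomes for 3 measures of flank peaks, each with 1 library per genotype, so that none of the differences was tested. The flank share of the peaks was 0.634 percentage points higher in the Ezh2m-/p+ than in the Ezh2m+/p+ list of the maternal genome, and the paternal difference was -0.779 points. The signs were kept with lists of equal size, without chromosome X and with the fold limit at 10 or the length limit at 2000 bp, where the maternal difference was smallest at a length over 2000 bp (0.212 points).

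The median fold of flank peaks differed by 15.7 in the maternal and by -20.3 in the paternal genome, Ezh2m-/p+ minus Ezh2m+/p+. With the length limit at 2000 bp the paternal difference was -5.77. Lists of equal size were cut by fold, which sets their median fold, so nothing is read from the sign there. The share of maternal flank peaks above the gap in the folds moved with the maternal difference, and its part in it was not tested.

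The median length of flank peaks differed by -1000 bp in the maternal and by 400 bp in the paternal genome. With the fold limit at 10 the differences were -600 and 200 bp, and without chromosome X the paternal one was 200 bp. Lists of equal size were cut by fold, and nothing is read from the lengths there.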

How the results depend on the processing

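Of 220 values recomputed under the alternatives, 138 moved by less than their interval or stayed within 1.5 times the count, and 82 moved further. In lists of equal size the genotype differences of the paternal median fold and median length were 38.1 and -200 bp, with the sign changed. Those lists were cut by fold, so these values describe the cut. In the lists below, values follow the order Ezh2m+/p+ maternal, Ezh2m+/p+ paternal, Ezh2m-/p+ maternal and Ezh2m-/p+ paternal unless a list is named. Flanks by distance alone held the same peaks. Why values moved was not tested.

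With a fold over 10, overlap with the other genotype was 5.44%, 45.8%, 1.79% and 40.6%, and with the other parental genome 0%, 0%, 0.199% and 0%. Flank genes with a peak within 1 kb were 1.37%, 31.3%, 6.95% and 30.5%, and the covered share of the flanks 0.247%, 1.71%, 0.658% and 2.23%. The maternal median lengths were 2399 and 1799 bp, and the median CpG 0.959 in the Ezh2m+/p+ maternal and 0.907 in the Ezh2m-/p+ paternal list. Genes shared by the genotypes were 12 maternal and 312 paternal, and by the parental genomes 2 (Ezh2m+/p+) and 14 (Ezh2m-/p+).

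With a length over 2000 bp, overlap with the other genotype was 76.7% and 43.0% in the paternal lists, and with the other parental genome 0%, 0%, 0.294% and 0%. Flank genes with a peak within 1 kb were 7.29% and 8.31% in the maternal and 36.4% in the Ezh2m-/p+ paternal list. The covered share was 0.664%, 1.44%, 0.741% and 2.49%. The median fold was 19.6, 26.0 and 13.8 in the Ezh2m+/p+ paternal, Ezh2m-/p+ maternal and Ezh2m-/p+ paternal lists. In the Ezh2m+/p+ paternal list the flank share was 6.42%, its inner part 46.4% and the median CpG 1.05. Shared genes were 20 maternal and 165 paternal between genotypes, and 1 and 6 between parental genomes.

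In lists of equal size, overlap with the other genotype was 4.84% in the Ezh2m+/p+ maternal and 12.3% and 15.3% in the paternal lists, and with the other parental genome 0.269%, 0%, 0% and 0%. Flank genes with a peak within 1 kb were 15.7%, 6.90% and 11.4%, and the median fold 72.2, 28.3 and 110.3, in the Ezh2m+/p+ paternal, Ezh2m-/p+ maternal and Ezh2m-/p+ paternal lists. In the Ezh2m+/p+ paternal list the flank share was 7.38% and its inner part 47.2%, and the Ezh2m-/p+ paternal median length was 1599 bp. Shared genes were 22 maternal and 64 paternal between genotypes, and 4 and 5 between parental genomes.

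With a reciprocal overlap of 50%, overlap with the other genotype was 4.57%, 32.1%, 2.49% and 26.7%, and with the other parental genome 0.269%, 0% and 0.293% in the first 3 lists. The covered share was 0.783%, 2.27%, 1.10% and 3.41% on autosomes and 0.763%, 2.51%, 1.13% and 3.63% around protein-coding genes. No paired analysis was possible because each genotype had 1 library. Depth per peak is unknown here, and a genotype difference cannot be told apart from a difference between libraries.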

Other observations

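Flank peaks were spread unevenly over the chromosomes. The flank share of the autosomal peaks ran from 2.61% on chromosome 14 to 9.36% on chromosome 7 in the Ezh2m+/p+ maternal list, and from 3.35% on chromosome 16 to 10.1% on chromosome 17 in the Ezh2m+/p+ paternal list. In Ezh2m-/p+ zygotes it ran from 4.48% on chromosome 12 to 11.9% on chromosome 7 in the maternal and from 4.06% on chromosome 3 to 8.91% on chromosome 7 in the paternal list. On chromosome X the shares were 2.38% in the Ezh2m+/p+ maternal, 1.39% in the Ezh2m+/p+ paternal, 4.20% in the Ezh2m-/p+ maternal and 1.22% in the Ezh2m-/p+ paternal list.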
